A study of Homo sapiens with 18 samples.

Results

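Metallothionein genes and their zinc regulators were followed through the RNA Seq data as 9 of the 60675 genes counted. These were the 7 metallothionein genes MT2A, MT1A, MT1E, MT1F, MT1G, MT1M and MT1X, the zinc-sensing transcription factor MTF1, and the zinc exporter SLC30A1 (ZnT1). They were found by gene symbol, and all 9 had a row in every library. The set was chosen with earlier values of these libraries known, because MT2A was higher on knockdown in C4-2. The knockdown values of C4-2 are therefore given as a description, with no test.

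The RNA came from LNCaP, an androgen-dependent prostate cancer line, and from C4-2, a derivative of LNCaP that grows without androgen. Each line was sampled in 3 groups of 3 libraries. The siScr vehicle group carried non-targeting scrambled siRNA and received vehicle, named as DMSO in the RNA Seq methods. The siScr R1881 group carried the same siRNA and received the synthetic androgen R1881 (1 nM, 72 h). The dual knockdown group carried siRNA pools against the lysine demethylases KDM1A and KDM7A together and received R1881 (1 nM, 72 h). All 6 groups were thus transfected with siRNA. For experiments with R1881, the culture methods give a medium free of phenol red, with dialysed serum depleted of hormones. The groups had no libraries with a single knockdown, so values cannot be assigned to either demethylase. Knockdown libraries with vehicle were not analysed here. For the C4-2 vehicle libraries the titles give C4-2 while the cell line field gives LNCaP, and the titles were followed.

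Metallothioneins are small, cysteine-rich proteins that bind zinc and copper and buffer the free ions inside the cell. When free zinc rises, MTF1 binds it, moves to DNA motifs called metal response elements, and switches on metallothionein genes and SLC30A1, whose product carries zinc out of the cytosol. Normal prostate epithelium is known for its high zinc content, and prostate cancer cells for much lower zinc. Glucocorticoids are also known inducers of MT2A.

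The libraries held 3182604 to 20154243 counted read pairs, with a median of 18117641. The knockdown lowered its targets. KDM1A went from 108 ± 4.45 to 51.6 ± 2.86 CPM (counts scaled to the size of each library, mean ± SD, n = 3) in LNCaP and from 142 ± 3.22 to 16.4 ± 3.03 CPM in C4-2. KDM7A went from 59.7 ± 5.02 to 30.9 ± 2.93 CPM in LNCaP and from 121 ± 10.0 to 21.2 ± 2.88 CPM in C4-2. The 7 luminal prostate markers, with KLK3 among them, were all detected in every group, with summed levels of 1370 to 11000 CPM. The 3 basal markers together stayed at or under 1.6 CPM and the 2 leukocyte markers at or under 3.31 CPM. The 3 neuroendocrine markers summed to 35.4 to 56.9 CPM in LNCaP and 13.2 to 22.0 CPM in C4-2, and the 2 endothelial markers to 12.5 to 20.8 and 4.95 to 10.6 CPM. A pair of vehicle libraries stood apart from the others, LNCaP replicate 1 and C4-2 replicate 3, the latter being the shallowest library. In both, the same 174 genes, such as the pseudogenes EEF1A1P5 and MTCO1P12, were at least 5 times the highest level of the other 16 libraries, and none of the 9 genes was among them. The next pair of libraries of the 153 possible pairs had 0 such genes. Replicate 1 of the C4-2 knockdown also differed from its replicates, with chi-square per gene of 17.4 and 15.3 against 3.57 between the other two. The log2FC values of single genes among the 9 that include these libraries are given with and without them. Counts over gene lists are given both ways where leaving such a library out changed the count. Group means, summed levels, ratios, medians and correlations are given with all libraries only.

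The metallothionein genes lie together on the long arm of chromosome 16. In the Ensembl 83 gene models on GRCh38 that were used for counting, MT2A spans chr16:56608199-56609497, MT1E chr16:56625475-56627112, MT1M chr16:56632233-56633986, MT1F chr16:56657694-56660698 and MT1X chr16:56682424-56684196 on the plus strand. MT1G, at chr16:56666731-56668065, lies on the minus strand. The model of MT1A, chr16:56638666-56750276, is long enough to span MT1F, MT1G and MT1X. MTF1 (chr1:37809567-37859620) and SLC30A1 (chr1:211571568-211578742) lie on the minus strand of chromosome 1. Each metallothionein has a coding sequence of 183 bases in 3 exons. The coding sequences of the 4 metallothionein genes with measurable expression are shown because reads must tell these close copies apart. Capitals mark bases that differ from MT2A, from GENCODE 29 on GRCh38, 5′ to 3′.
MT2A: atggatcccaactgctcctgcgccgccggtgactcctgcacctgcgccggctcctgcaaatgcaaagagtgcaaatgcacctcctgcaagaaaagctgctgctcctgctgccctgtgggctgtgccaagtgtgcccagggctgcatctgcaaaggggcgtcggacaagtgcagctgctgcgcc
MT1X: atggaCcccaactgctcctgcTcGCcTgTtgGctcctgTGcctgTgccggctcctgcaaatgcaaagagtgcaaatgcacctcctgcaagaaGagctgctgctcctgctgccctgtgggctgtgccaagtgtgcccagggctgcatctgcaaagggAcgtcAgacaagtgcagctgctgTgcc
MT1F: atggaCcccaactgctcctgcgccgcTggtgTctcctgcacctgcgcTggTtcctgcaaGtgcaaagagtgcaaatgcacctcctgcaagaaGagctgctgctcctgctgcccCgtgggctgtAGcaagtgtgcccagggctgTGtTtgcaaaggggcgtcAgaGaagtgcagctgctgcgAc
MT1G: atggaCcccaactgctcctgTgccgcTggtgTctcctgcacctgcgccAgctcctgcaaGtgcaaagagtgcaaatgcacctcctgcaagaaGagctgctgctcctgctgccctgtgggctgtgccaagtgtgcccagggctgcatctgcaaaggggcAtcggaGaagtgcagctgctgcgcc
MT1X differed from MT2A at 14 bases, MT1F at 16 and MT1G at 9. Over the 21 pairs of the 7 genes, 88.5% to 95.1% of coding bases were identical. No stretch of 100 bases in the transcripts of these 7 genes was shared with another of 21 metallothionein genes and pseudogenes. Read pairs that map to several places are left out by the counting program unless it is told otherwise.

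Upstream sequence was held for 4 of the 9 genes, MT2A, MT1X, MTF1 and SLC30A1. The 250 bases before the RefSeq start (GRCh38.p14) are shown for the 3 with a match to the core of the metal response element, TGCACNC or TGCGCNC on either strand. Capitals mark the matches, and each sequence runs 5′ to 3′ on the strand of its gene. The windows are chr16:56608334-56608583 (plus strand) for MT2A, chr16:56682220-56682469 (plus) for MT1X and chr1:211579162-211579411 (minus) for SLC30A1.
MT2A: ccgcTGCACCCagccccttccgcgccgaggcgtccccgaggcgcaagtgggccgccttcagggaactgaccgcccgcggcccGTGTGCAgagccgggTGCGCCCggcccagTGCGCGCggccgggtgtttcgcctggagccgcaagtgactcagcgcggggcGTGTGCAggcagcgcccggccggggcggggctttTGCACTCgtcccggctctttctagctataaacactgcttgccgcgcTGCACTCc
MT1X: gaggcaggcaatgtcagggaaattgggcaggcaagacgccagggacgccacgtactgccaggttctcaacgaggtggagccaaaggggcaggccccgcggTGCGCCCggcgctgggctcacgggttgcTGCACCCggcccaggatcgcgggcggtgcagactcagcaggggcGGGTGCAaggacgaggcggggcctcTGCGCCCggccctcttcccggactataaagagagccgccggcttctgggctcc
SLC30A1: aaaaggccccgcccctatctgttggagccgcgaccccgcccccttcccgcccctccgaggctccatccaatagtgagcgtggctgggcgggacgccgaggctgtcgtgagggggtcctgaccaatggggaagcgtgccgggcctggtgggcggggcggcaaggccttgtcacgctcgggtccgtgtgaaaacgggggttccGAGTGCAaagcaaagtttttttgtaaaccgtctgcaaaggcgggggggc
MT2A held 7 matches, and 0.0313% of 35116 promoter windows of the same length held as many. MT1X held 4, a number reached by 0.37% of windows. SLC30A1 held 1 and MTF1 held 0, while 24.8% of windows held at least 1. The full steroid receptor element, an inverted repeat of AGAACA with 3 bases between the arms, was in none of the 4 windows and in 0.00285% of all windows. With an exact match so rare, its absence does not show that these genes lack a steroid receptor element. The arm AGAACA alone was also in none of the 4, against 12.4% of all windows, on either strand. These are matches of letters within 250 bases and say nothing of binding.

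**Figure D1:**
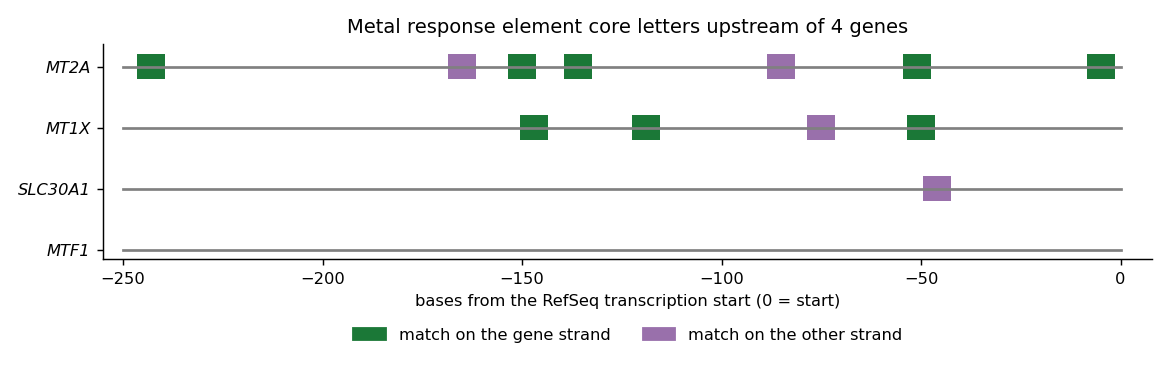
Positions of metal response element core matches in the 250 bases before the RefSeq start of MT2A, MT1X, SLC30A1 and MTF1, in bases from the start (x axis). Each box is a match of 7 bases, coloured by strand. MT2A holds 7, MT1X 4, SLC30A1 1 and MTF1 0.

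The R1881 responses of several of these genes differed between the 2 lines. In LNCaP, R1881 up-regulated MT2A, MT1X and MT1G as well as MTF1 and SLC30A1. That is 5 of the 6 genes tested, with MT1F just short of the threshold. Of all 17162 genes tested, 46.6% passed in either direction and 23.5% passed as higher. In C4-2, the metallothioneins went the other way. MT2A was lower with R1881 in every library, and MT1F and MT1X were down-regulated. Leaving MT2A aside, these are 2 of 4 genes tested, beside 32.8% of 16965 genes in either direction and 15.7% as lower. MTF1 and SLC30A1 did not pass in C4-2. The median log2FC of the genes was 0.47 in LNCaP, against -0.04 over all genes, and -0.25 in C4-2, with MT2A left aside, against -0.02. The C4-2 siScr R1881 libraries are also the controls of the knockdown that the genes were chosen on, so MT2A is given without a p and left out of counts wherever they enter, and the other genes share those libraries.

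On dual knockdown, MT2A was up-regulated in LNCaP too. These libraries were outside the C4-2 contrast named in the choice of genes, but earlier results of all these data were known. MT1G was also higher and SLC30A1 lower there, which makes 3 of 6 genes tested, beside 14.2% of all genes in either direction. None of the 6 changed by a log2FC of 1 or more, as 0.286% of all genes did. The median log2FC was 0.39, against 0.00 over all genes. In C4-2, the log2FC was above 0 for MT2A, MT1F, MT1X and MTF1 and below 0 for SLC30A1, which is a description, because this contrast was in view when the genes were chosen. The plot of log2FC by gene and line shows these responses together. Fold changes are log2FC from edgeR's quasi-likelihood test, with p-values adjusted by Benjamini-Hochberg over all genes tested. The SE after ± was worked back from that test, as the absolute log2FC over the square root of its F value. An interval of a log2FC assumes a normal distribution and may be too narrow. A gene passed at an adjusted p under 0.05. The labels do not say whether the replicates came from separate cultures, so the p-values measure the spread between these libraries, which may be technical.

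**Figure D2:**
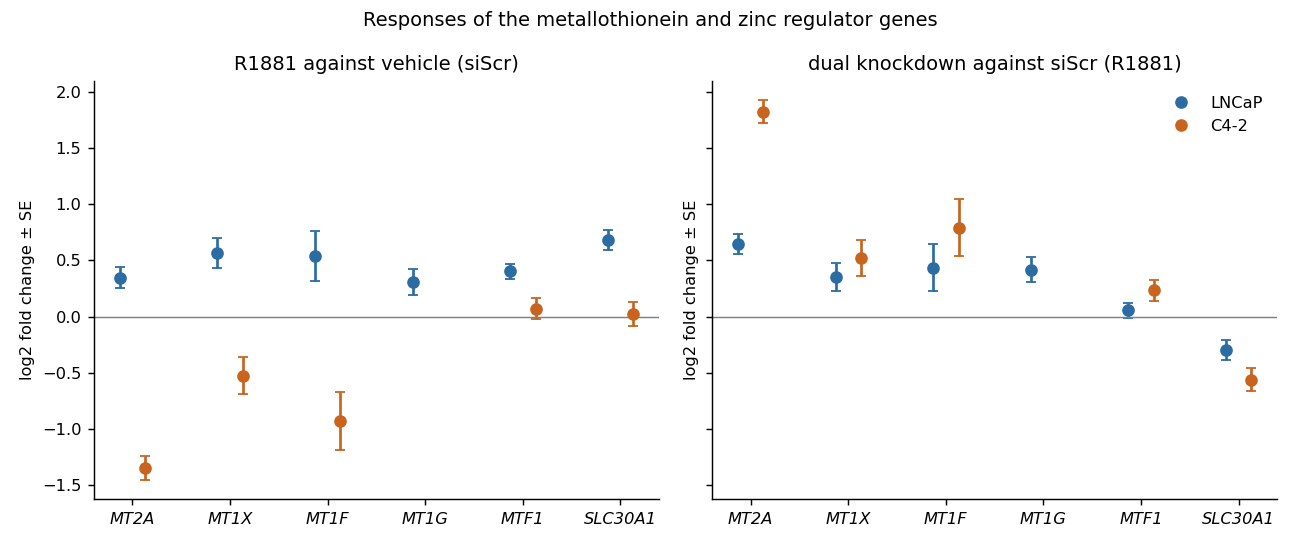
The log2FC ± SE (y axis) of 6 genes for R1881 against vehicle in siScr cells (left) and for dual knockdown against siScr with R1881 (right), in LNCaP (blue) and C4-2 (orange). With R1881, MT2A, MT1X and MT1F lie above 0 in LNCaP and below 0 in C4-2. MT1G is not drawn for C4-2, where it had too few counts.

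MT2A, the most abundant metallothionein by counts in both lines, had LNCaP levels of 27.5, 25.3 and 31.3 CPM in the siScr vehicle libraries, 38.5, 36.5 and 33.0 CPM with R1881, and 56.1, 52.7 and 58.2 CPM on dual knockdown. Every R1881 library was above every vehicle library, and every knockdown library was above both. R1881 up-regulated MT2A in LNCaP by a log2FC of 0.35 ± 0.09 (adjusted p = 0.00478), and by 0.35 without the first vehicle replicate (adjusted p = 0.00752). Dual knockdown up-regulated it by a further 0.65 ± 0.09 (adjusted p = 0.00109), a fold of 1.57. No alternative fit ended this call, with adjusted p from 1.11e-11 to 0.0109. In bulk RNA, a change in RNA per cell and a change in the share of expressing cells cannot be told apart.

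In C4-2, MT2A levels were 68.8, 73.0 and 61.8 CPM in the siScr vehicle libraries, 27.4, 27.9 and 25.6 CPM with R1881, and 113, 88.6 and 86.0 CPM on dual knockdown. The R1881 libraries were the lowest and the knockdown libraries the highest, with no overlap among the 3 groups. The log2FC was -1.35 ± 0.10 for R1881 and 1.82 ± 0.10 for dual knockdown, a fold of 3.54. Without knockdown replicate 1, the highest library, it was 1.69. Without vehicle replicate 3, the R1881 value was -1.39. The mean knockdown level, 96.0 ± 15.1 CPM, was above the mean vehicle level of 67.9 ± 5.69 CPM (SD, n = 3), so MT2A was higher on knockdown than in cells without androgen. The 3 fibroblast markers moved in the same direction in C4-2, with summed levels of 30.6 to 39.3 CPM with vehicle, 18.4 to 25.7 CPM with R1881 and 29 to 38.3 CPM on knockdown, against 16.5 to 18, 7.54 to 11.9 and 10.6 to 13.6 CPM in LNCaP. In each C4-2 siScr group 1 of the 3 markers was at 0, and the part of these markers in the MT2A values was not tested.

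Ordered by mean level, MT2A was highest in the C4-2 knockdown group, followed by C4-2 vehicle, LNCaP knockdown, LNCaP R1881, LNCaP vehicle and C4-2 R1881. Neighbours in this order did not overlap, except the last pair, at 28.0 ± 3.02 and 27.0 ± 1.18 CPM. Without androgen, MT2A was thus higher in C4-2 than in LNCaP, by 1.29 ± 0.11 (adjusted p = 8.66e-10), and by 1.34 without both vehicle libraries that stood apart (adjusted p = 1.47e-09). With R1881 the order was turned, at -0.42 ± 0.10 for C4-2 against LNCaP. The R1881 response of MT2A in C4-2 minus that in LNCaP was -1.71 ± 0.15 on the log2 scale, and -1.73 without both of those vehicle libraries. The knockdown response was higher by 1.20 ± 0.14 log2 units in C4-2, a contrast that contains the values used to choose the genes. It was 1.08 without C4-2 knockdown replicate 1. The knockdown itself was deeper in C4-2. KDM1A went from 142 to 16.4 CPM there, against 108 to 51.6 CPM in LNCaP. KDM7A went from 121 to 21.2 CPM, against 59.7 to 30.9 CPM. Line and depth of knockdown cannot be told apart in this difference.

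**Figure D3:**
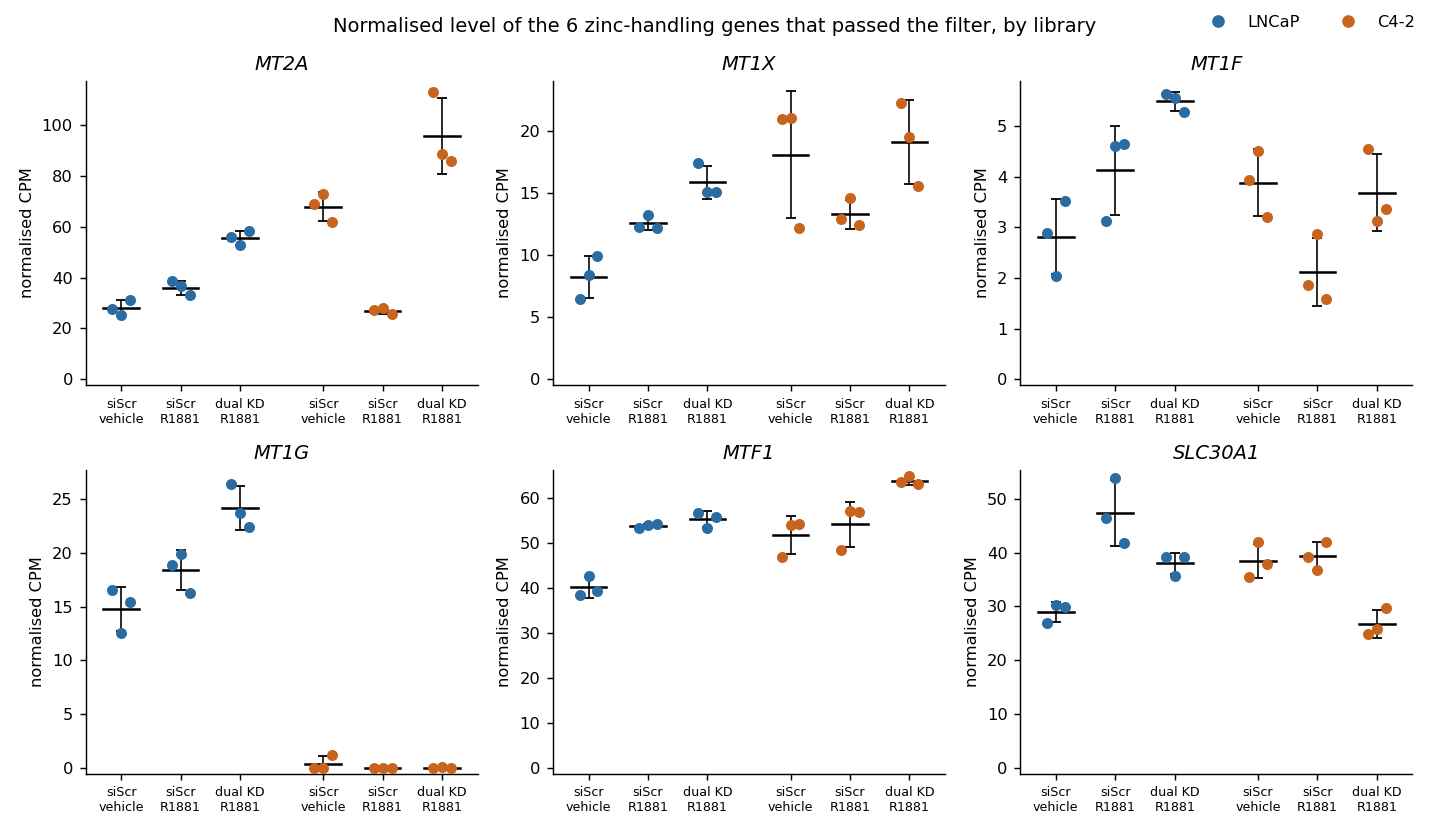
Normalised CPM (y axis, from 0) of MT2A, MT1X, MT1F, MT1G, MTF1 and SLC30A1 in each library (points), with the mean and SD of the 3 libraries of a group (line and bars). LNCaP is blue and C4-2 orange. MT2A is lowest in C4-2 with R1881 (27.0 CPM) and highest in the C4-2 knockdown (96.0 CPM), and MT1G is at or near 0 in C4-2.

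MT1X, a metallothionein 1 isoform, had LNCaP levels of 6.48, 8.4 and 9.89 CPM with vehicle, 12.3, 13.2 and 12.2 CPM with R1881, and 17.4, 15.1 and 15.1 CPM on knockdown. The 3 groups lay in that order without overlap. R1881 up-regulated MT1X by 0.57 ± 0.13 (adjusted p = 0.002), or 0.46 without the first vehicle replicate (adjusted p = 0.00642), and the knockdown difference of 0.36 ± 0.12 did not pass (adjusted p = 0.0669), although it did without the first vehicle replicate (adjusted p = 0.0308). In C4-2, the levels were 21.0, 21.1 and 12.2 CPM with vehicle, 12.9, 14.6 and 12.4 CPM with R1881, and 22.3, 19.5 and 15.6 CPM on knockdown. Vehicle replicate 3 was the odd library, lying below all R1881 libraries, so these groups overlapped. The R1881 difference in C4-2 was -0.52 ± 0.17 (adjusted p = 0.0263). It was -0.66 without that library (adjusted p = 0.00108), while the call was lost without vehicle replicate 1 (adjusted p = 0.122) or 2, or R1881 replicate 1 or 3. The knockdown difference in C4-2 was 0.52 ± 0.16, or 0.40 without knockdown replicate 1.

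MT1F was the least abundant of the expressed metallothioneins, with 11 to 104 counts per library. In LNCaP, it had 2.89, 2.04 and 3.52 CPM with vehicle, 3.12, 4.61 and 4.65 CPM with R1881, and 5.64, 5.56 and 5.28 CPM on knockdown. Vehicle and R1881 libraries overlapped, and the knockdown libraries were above them all. Neither the R1881 difference of 0.54 ± 0.22 (adjusted p = 0.0542) nor the knockdown difference of 0.44 ± 0.21 (adjusted p = 0.169) passed, and the first was 0.57 without vehicle replicate 1 (adjusted p = 0.0525) and passed without vehicle replicate 3 or R1881 replicate 1 (adjusted p = 0.0187 and 0.018). In C4-2, MT1F had 3.93, 4.52 and 3.2 CPM with vehicle, 1.87, 2.87 and 1.59 CPM with R1881, and 4.55, 3.13 and 3.37 CPM on knockdown. The R1881 libraries were below both other groups. R1881 down-regulated MT1F in C4-2 by a log2FC of -0.93 ± 0.26 (adjusted p = 0.0132), or -0.99 without vehicle replicate 3 (adjusted p = 0.00523), a call lost without vehicle replicate 2 (adjusted p = 0.0697) or without R1881 replicate 1 or 3. The knockdown difference in C4-2 was 0.79 ± 0.25, or 0.62 without knockdown replicate 1.

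The R1881 response differed between the lines for MT1F by -1.48 ± 0.35 (C4-2 minus LNCaP, adjusted p = 0.0057) and for MT1X by -1.11 ± 0.23 (adjusted p = 0.00218). Without both vehicle libraries that stood apart, these were -1.56 (adjusted p = 0.005) and -1.11 (adjusted p = 0.000261). Across all genes, 14.0% passed this test and 7.95% passed as lower in C4-2. With MT2A and MT1G left aside, all 4 genes tested passed, each lower in C4-2, and 3 of them without both of those libraries. The C4-2 siScr R1881 libraries enter this test and the comparison of the lines with R1881. They were also the controls in the knockdown contrast behind the choice of genes, so these results are not independent of it. In vehicle, 4 of 5 genes tested differed between the lines, beside 58.9% of all genes. MT1G was left out of this count, since it passed the filter on low counts through LNCaP alone. MT1X was higher in C4-2 by 1.19 ± 0.17 (adjusted p = 3.03e-06), or 1.22 without both vehicle libraries that stood apart (adjusted p = 1.71e-07). MT1F differed by 0.53 ± 0.25 (adjusted p = 0.0767), and passed without LNCaP vehicle replicate 3 (adjusted p = 0.0302) or C4-2 vehicle replicate 3. Without both libraries that stood apart it was 0.63 (adjusted p = 0.0537). With R1881, and MT2A also left aside, 2 of 4 differed, beside 58.3% of all genes. MT1F was lower in C4-2 by a log2 difference of -0.96 ± 0.25 (adjusted p = 0.00211), and MT1X differed by 0.08 ± 0.16 (adjusted p = 0.686).

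MT1G, a further metallothionein 1 isoform, was expressed in LNCaP and nearly absent from C4-2. LNCaP libraries held 188, 270 and 281 counts with vehicle, 346, 272 and 283 with R1881, and 416, 444 and 420 on knockdown. The C4-2 libraries held 4 counts in vehicle replicate 3, 1 count in knockdown replicate 2, and 0 in the other 7. No C4-2 library came near the LNCaP range. In vehicle, the ratio of pooled counts, scaled to library size, was 145 for LNCaP over C4-2 (95% interval for counting error 56.4 to 534). The ratio of the mean levels over libraries was 38.1, from 14.8 and 0.388 CPM. With R1881, the 3 C4-2 libraries together held 0 counts. With 3 counts over the group set as a floor for C4-2, the ratio was 318, and the lower end of the 95% interval used for the other groups was 258. Both cover counting error only, not the spread between libraries. On knockdown, 1280 counts in LNCaP stood against 1 in C4-2, and the ratio of 1270 had an interval of 228 to 50300. All 4 vehicle counts fell in C4-2 vehicle replicate 3, a library that stood apart, where they made 7.87% of the LNCaP vehicle level. That library held 0 counts of 3 other LNCaP genes that were nearly absent from C4-2, while its replicates held 3 each. Its depth was 3182604 counted read pairs, against 18185805 and 16596790 in its replicates, so these small counts cannot be compared directly. The source of the 4 MT1G counts was not tested.

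Within LNCaP, MT1G differed between the groups in the same directions as MT2A. Its levels were 16.5, 12.5 and 15.4 CPM with vehicle, 18.9, 19.9 and 16.3 CPM with R1881, and 26.4, 23.7 and 22.4 CPM on knockdown. The vehicle and R1881 libraries touched, at 16.5 and 16.3 CPM, and the knockdown libraries were above both. R1881 up-regulated MT1G by 0.31 ± 0.12 (adjusted p = 0.0401). Without the first vehicle replicate this was 0.39 (adjusted p = 0.0137), while the call was lost without vehicle replicate 2 (0.20, adjusted p = 0.176) or R1881 replicate 1 or 2. Dual knockdown up-regulated MT1G by 0.42 ± 0.11 (adjusted p = 0.0216). That call was lost without R1881 replicate 3 or knockdown replicate 1 or 2, with an adjusted p of up to 0.115, and with the trend in GC content removed (0.30, adjusted p = 0.0732). Per kilobase of principal transcript, MT1G had 36.5 and MT2A 35.6 CPM per kilobase in LNCaP vehicle cells, with transcripts of 406 and 786 bases. The MT2A transcript begins before the RefSeq start used for the upstream window. A shorter transcript would give MT2A a higher value, so the rank of these genes depends on the length taken. MT1X followed at 18.3 and MT1F at 4.08 CPM per kilobase.

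MT1A, MT1E and MT1M were at or near 0 in both lines. MT1A had 6 counts, all in C4-2 libraries, MT1E had 2 in LNCaP libraries, and MT1M had 1 over all 18 libraries. None of the 3 passed the filter on low counts, so 6 of the 9 genes were tested in LNCaP and 5 in C4-2. Of the other 12 metallothionein genes and pseudogenes on the list, only the pseudogene MT1DP passed the filter, with a group mean of at most 0.646 CPM, and it passed no test.

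Summed over the 7 genes, metallothionein counts in LNCaP were 53.9 ± 5.92 CPM with vehicle, 71.1 ± 4.39 CPM with R1881 and 101 ± 3.95 CPM on knockdown (SD, n = 3). In C4-2, they were 90.3 ± 10.6, 42.4 ± 2.91 and 119 ± 18.7 CPM. The sum was higher in each successive group in LNCaP, and lowest with R1881 in C4-2. MT2A supplied 49.2% to 57.6% of the sum in LNCaP libraries and 61.5% to 81.8% in C4-2 libraries, where MT1G was missing. The stacked plot of counts per library shows this make-up.

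**Figure D4:**
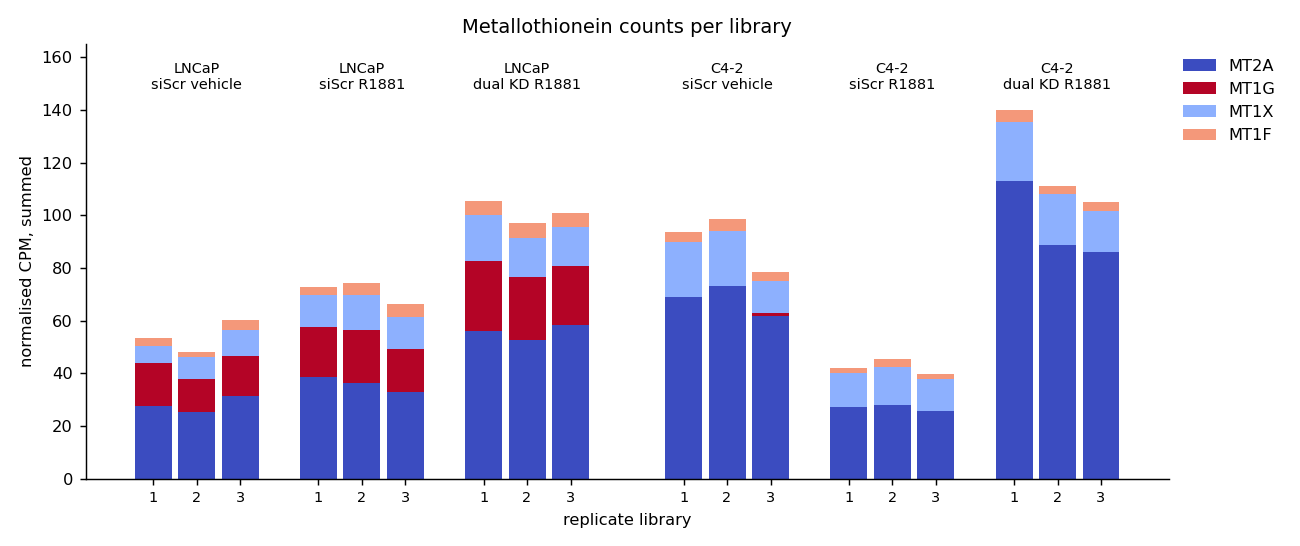
Normalised CPM of MT2A, MT1G, MT1X and MT1F, stacked, in each of the 18 libraries (bars, numbered by replicate within a group). The sum is lowest in C4-2 with R1881 (42.4 CPM on average), and MT1G is a visible part of it in LNCaP only, apart from 4 counts in C4-2 vehicle replicate 3.

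MTF1, the transcription factor that senses zinc, varied less between groups than MT2A. Its LNCaP levels were 38.4, 42.7 and 39.2 CPM with vehicle, 53.3, 54.0 and 54.1 CPM with R1881, and 56.7, 53.4 and 55.8 CPM on knockdown. R1881 and vehicle libraries were well separated, and knockdown and R1881 libraries overlapped. R1881 up-regulated MTF1 in LNCaP by 0.40 ± 0.07 (adjusted p = 0.000115), and by 0.39 without vehicle replicate 1 (adjusted p = 0.000453). The knockdown difference was 0.06 ± 0.07 (adjusted p = 0.625), with a 95% interval of -0.07 to 0.19. In C4-2, MTF1 had 46.9, 54.0 and 54.2 CPM with vehicle, 48.4, 57.0 and 56.9 CPM with R1881, and 63.6, 64.9 and 63.0 CPM on knockdown. Vehicle and R1881 libraries overlapped there, with a difference of 0.07 ± 0.09 (adjusted p = 0.6), or 0.10 without vehicle replicate 3 (adjusted p = 0.476). The knockdown libraries lay above both, by 0.23 ± 0.09 over R1881, or 0.24 without knockdown replicate 1.

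Without androgen, MTF1 was higher in C4-2 than in LNCaP by 0.35 ± 0.08 (adjusted p = 0.000551), and by 0.31 without both vehicle libraries that stood apart (adjusted p = 0.00865). With R1881, the lines differed by 0.01 ± 0.07 (adjusted p = 0.941). The difference between the lines in the R1881 response was -0.34 ± 0.11 (adjusted p = 0.0353). It was lost without both of those vehicle libraries (-0.27, adjusted p = 0.16) and in 11 of 18 fits that left out 1 library, with an adjusted p of up to 0.116 without C4-2 R1881 replicate 1.

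SLC30A1, which exports zinc and is itself an MTF1 target, went against the metallothioneins on knockdown. In LNCaP, its levels were 26.9, 30.2 and 29.9 CPM with vehicle, 46.4, 53.9 and 41.8 CPM with R1881, and 39.1, 35.7 and 39.2 CPM on knockdown. The groups did not overlap, with R1881 the highest. R1881 up-regulated SLC30A1 by 0.68 ± 0.09 (adjusted p = 9.1e-06), a fold of 1.61, and by 0.65 without vehicle replicate 1 (adjusted p = 9.22e-06). Dual knockdown down-regulated it by a log2FC of -0.30 ± 0.09 (adjusted p = 0.0354). That call was lost without R1881 replicate 1 or 2, or any of the 3 knockdown replicates, with an adjusted p of up to 0.17 without R1881 replicate 2. It was also lost with the GC trend removed (-0.15, adjusted p = 0.272), and the gene has a GC content of 38.0%, below the 50.5% to 62.5% of the metallothioneins. In C4-2, SLC30A1 had 35.5, 41.9 and 37.9 CPM with vehicle, 39.1, 36.8 and 42 CPM with R1881, and 24.8, 25.8 and 29.6 CPM on knockdown. Vehicle and R1881 overlapped, with a difference of 0.03 ± 0.11 (adjusted p = 0.876), or 0.02 without vehicle replicate 3 (adjusted p = 0.901). All knockdown libraries lay below them, by a log2FC of -0.56 ± 0.10 against R1881, or -0.50 without knockdown replicate 1.

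The R1881 response of SLC30A1 was smaller in C4-2 by -0.67 ± 0.14 log2 units (adjusted p = 0.00194), and by -0.62 without both vehicle libraries that stood apart (adjusted p = 0.00811). In vehicle, SLC30A1 was higher in C4-2 by 0.40 ± 0.10 (adjusted p = 0.00172), or 0.37 without those libraries (adjusted p = 0.0104). With R1881, it was lower in C4-2 by a log2 difference of -0.27 ± 0.10 (adjusted p = 0.0207). That last difference was lost without LNCaP R1881 replicate 2 (adjusted p = 0.168) or C4-2 R1881 replicate 1 or 2, and with the GC trend removed (-0.15, adjusted p = 0.108). For single genes, an exact permutation test of 3 libraries against 3 cannot give a 2-sided p under 0.1, and that smallest value was reached wherever the groups did not overlap.

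The other members of the zinc transporter families were examined beside these genes, since many SLC30A proteins move zinc out of the cytosol and many SLC39A (ZIP) proteins move it in. Of the 9 other SLC30A genes, 6 were tested in each line. None passed on dual knockdown in LNCaP or C4-2, although 1 passed as lower in C4-2 without vehicle replicate 3. R1881 up-regulated SLC30A7, a Golgi exporter, in both lines, by 0.73 ± 0.07 (LNCaP, adjusted p = 1.76e-07) and 0.96 ± 0.09 (C4-2, adjusted p = 1.73e-06). In LNCaP, 3 SLC30A genes rose and 2 fell with R1881, SLC30A4 by a log2FC of -0.54 ± 0.05 (adjusted p = 2.13e-07) and SLC30A10, at a low level, by -3.10 ± 0.39 (adjusted p = 5.51e-06). Without the first vehicle replicate, 3 fell. In C4-2, 2 rose and none fell, and 3 rose and 1 fell without knockdown replicate 1. The shares over all genes with R1881 were 46.6% in LNCaP and 32.8% in C4-2, and on knockdown 14.2% and 23.5%.

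Of the 14 SLC39A importers, 11 were tested. With R1881, 6 rose and 1 fell in LNCaP, beside 46.6% of all genes. In C4-2, 5 rose and none fell, beside 32.8%, and 6 rose and 2 fell without knockdown replicate 1. SLC39A10, a plasma membrane importer, rose by 1.49 ± 0.06 in LNCaP (adjusted p = 2.84e-12), from 63.5 ± 5.02 to 181 ± 0.565 CPM, and by 0.57 ± 0.10 in C4-2 (adjusted p = 0.000661). It fell on dual knockdown in both lines, with log2FC of -0.31 ± 0.06 (adjusted p = 0.00524) and -0.45 ± 0.10 (adjusted p = 0.00415). On dual knockdown, 4 importers rose and 1 fell in LNCaP, where 14.2% of all genes passed. In C4-2, 4 rose and 2 fell, beside 23.5% of all genes. SLC39A7, which releases zinc from the endoplasmic reticulum, rose by 0.55 ± 0.08 in C4-2 (adjusted p = 0.000151), and SLC39A3 by 0.49 ± 0.10 in LNCaP (adjusted p = 0.00602).

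Of the importers with a mean of at least 1 CPM, SLC39A8, which carries zinc and other metals, differed most between the lines. Its level was 161 ± 4.92 CPM in C4-2 vehicle cells and 39.0 ± 0.994 CPM in LNCaP, a log2 difference of 2.04 ± 0.07 (adjusted p = 6.25e-16). In LNCaP it fell with R1881 by a log2FC of -0.96 ± 0.08 (adjusted p = 5.43e-08). The map of log2FC values by transporter shows these responses beside SLC30A1.

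**Figure D5:**
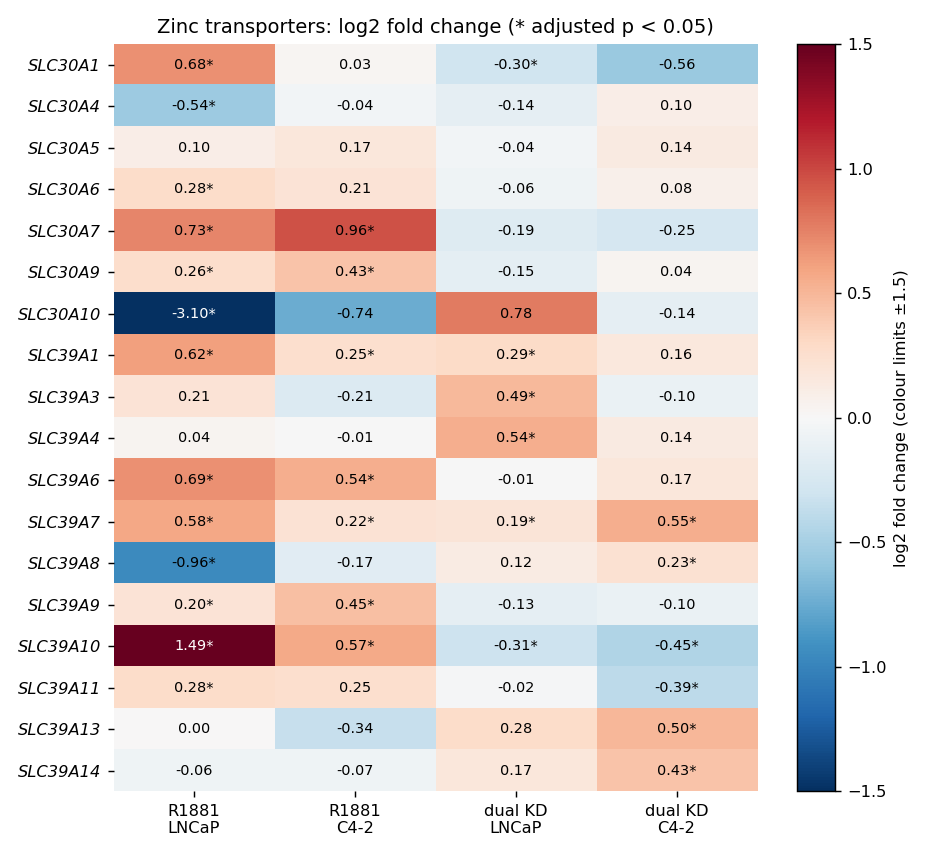
The log2FC (colour and printed value) of SLC30A1 and of the other SLC30A genes and SLC39A importers with a mean of at least 1 CPM (rows), for R1881 and dual knockdown in LNCaP and C4-2 (columns). An asterisk marks an adjusted p under 0.05, and SLC30A1 was not tested for dual knockdown in C4-2. SLC39A10 rises with R1881 (1.49 and 0.57) and falls on knockdown (-0.31 and -0.45) in both lines.

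Genes of the response to metals and oxidants, several of which MTF1 or NRF2 are known to control, were counted over a list of 12, all tested. On dual knockdown in C4-2, 6 rose and none fell, beside 23.5% of all genes that passed in either direction. The counts were the same without knockdown replicate 1, and 8 rose without vehicle replicate 3. NQO1, a quinone reductase, rose by 1.05 ± 0.07 (adjusted p = 6.97e-07), SLC7A11, the cystine importer, by 0.64 ± 0.11 (adjusted p = 0.00112), and HMOX1, haem oxygenase, by 0.60 ± 0.14 (adjusted p = 0.0055). In LNCaP, 3 rose and 1 fell, beside 14.2% of all genes, and 4 rose without the first vehicle replicate. HMOX1 rose there by 0.67 ± 0.14 (adjusted p = 0.00649), SRXN1, sulfiredoxin, by 0.78 ± 0.20 (adjusted p = 0.0175) and SELENOH, a selenoprotein, by 0.61 ± 0.10 (adjusted p = 0.00245). The median log2FC of the list was 0.54 in C4-2 and 0.07 in LNCaP, against 0.01 and 0.00 over all genes. With R1881, 7 rose and none fell in LNCaP, while 3 rose and 2 fell in C4-2, or 3 fell without knockdown replicate 1. The shares over all genes were 46.6% in LNCaP, with 23.5% as higher, and 32.8% in C4-2. HMOX1 rose with R1881 in LNCaP by 1.21 ± 0.16 (adjusted p = 7.52e-06), and its response was lower in C4-2 by 1.27 ± 0.24 log2 units (adjusted p = 0.000861).

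Of 8 copper handling genes, 1 rose and 1 fell on dual knockdown in C4-2, a share close to the 23.5% of all genes that passed. Without knockdown replicate 1, 2 rose and 1 fell. The copper chaperone ATOX1 fell by a log2FC of -0.63 ± 0.09 (adjusted p = 0.000254) and the copper importer SLC31A1 rose by 0.34 ± 0.08 (adjusted p = 0.0062). In LNCaP, only ATP7A, a copper pump, passed, at -0.24 ± 0.07 (adjusted p = 0.0367), beside 14.2% of all genes. Of 6 iron handling genes, 4 were tested. On knockdown, 2 rose and none fell in each line, beside 14.2% of all genes in LNCaP and 23.5% in C4-2. In LNCaP the 2 genes were the ferritin chains FTH1 (0.50 ± 0.08, adjusted p = 0.00199) and FTL (0.38 ± 0.08, adjusted p = 0.00543). In C4-2 they were the iron importers SLC11A2 (0.31 ± 0.07, adjusted p = 0.00559) and TFRC (0.28 ± 0.09, adjusted p = 0.0378).

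Because steroids can induce MT2A, genes known from glucocorticoid responses were set beside it. With R1881, 7 of 8 rose and 1 fell in LNCaP, beside 46.6% of all genes in either direction. In C4-2, 5 rose and none fell, beside 32.8%. FKBP5, a receptor co-chaperone, rose by 4.24 ± 0.06 (LNCaP, adjusted p = 9.39e-18) and 3.26 ± 0.08 (C4-2, adjusted p = 1.92e-12), and the kinase gene SGK1 by 2.95 ± 0.15 (adjusted p = 3.12e-11) and 3.02 ± 0.20 (adjusted p = 3.38e-08). The R1881 response differed between the lines for 4 of the 8, beside 14.0% of all genes. It was lower in C4-2 for TSC22D3 (-1.17 ± 0.18, adjusted p = 0.000106), FKBP5 (-0.99 ± 0.09, adjusted p = 3.65e-08) and ERRFI1 (-0.79 ± 0.12, adjusted p = 6.54e-05), and higher for KLF9 (0.41 ± 0.09, adjusted p = 0.00229). On dual knockdown, 1 rose and 3 fell in LNCaP and none rose and 4 fell in C4-2, where 1 rose without vehicle replicate 3. The shares over all genes were 14.2% in LNCaP and 23.5% in C4-2. SGK1 fell in both, with log2FC of -0.37 ± 0.12 (adjusted p = 0.0478) in LNCaP and -1.11 ± 0.16 (adjusted p = 0.000228). The glucocorticoid receptor gene NR3C1 stood at 0.986 CPM or less in every group on average.

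Among 11342 genes with a mean of at least 5 CPM, the level that followed MT2A most closely over the 18 libraries was that of KAZALD1, with a Pearson r of 0.924. APOL2 (0.899), GATA2-AS1 (0.894), EPOR (0.892) and PEDS1 (0.887) came next. KAZALD1 was highest in the C4-2 knockdown group, at 23.8 ± 2.37 CPM, as MT2A was, and lowest in LNCaP with vehicle, at 12.3 ± 0.665 CPM. PEDS1 had 29.6 ± 3.94 CPM in C4-2 with vehicle, 22.3 ± 1.08 CPM with R1881 and 46.2 ± 5.04 CPM on knockdown, with its lowest and highest groups the same as those of MT2A. Of the other genes of the set, MT1X had an r of 0.791 with MT2A, MTF1 0.614, MT1F 0.563, SLC30A1 -0.321 and MT1G -0.342. All these values include the libraries the genes were chosen on and share group and line differences, so they describe the pattern only.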

How the data were processed

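RNA Seq libraries were grouped by their titles. The authors trimmed reads with Trim Galore, kept bases with phred over 30, aligned them to GRCh38 with STAR and counted read pairs per Ensembl 83 gene with featureCounts 1.5.0-p1. The deposited values are raw counts, made without strand or multimapping options, so antisense partners cannot be told apart. The read processing was not repeated here.

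The 9 genes, the related lists and the tests were chosen with earlier results of these data known. Counts were analysed in edgeR 4.0.16 (R 4.3.3) with TMM factors, filterByExpr (minimum count 10, minimum total 15) and the 2-sided quasi-likelihood test, with 9 libraries per line, or all 18 for differences between lines (18684 genes). Normalised CPM used the TMM factors of all 18 libraries. Intervals and floors of the MT1G ratios cover counting error only. Alternatives were RLE factors, DESeq2 1.42.0, other filters, only the groups compared, a replicate block, GC and length trends removed, and each library left out. Leaving out both vehicle libraries that stood apart was added after seeing the data. The replicate numbers did not pair the libraries, since the correlations of deviations between same-numbered libraries of a line ran from -0.095 to 0.1, so the block with the GC trend removed was not run. From each related list, up to 4 genes per comparison with a mean of at least 1 CPM and an adjusted p under 0.05 could be named, by size of log2FC, and some are left out. For the 5 genes most like MT2A, log2 CPM with a prior of 2 counts was used.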

Additional observations from a re-analysis of the deposited data

Results flagged for a closer look

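The R1881 response differed between the lines for 5 genes, given as the log2FC in C4-2 minus that in LNCaP. MT2A, at -1.71, was flagged because every R1881 library was above every vehicle library in LNCaP and below every vehicle library in C4-2. The difference was not tested, since its C4-2 control libraries had a part in choosing the genes. For the other genes, the interaction in edgeR passed at an adjusted p of 0.0057 for MT1F (-1.48), 0.00218 for MT1X (-1.11), 0.0353 for MTF1 (-0.34) and 0.00194 for SLC30A1 (-0.67). MT1F and MT1X had opposite signs in the lines, while MTF1 and SLC30A1 rose in LNCaP and did not pass in C4-2. The vehicle groups of both lines hold a library that stood apart, and without both of them the difference for MTF1 did not pass (-0.27, adjusted p = 0.16) and the other 3 tested differences did. The same C4-2 R1881 libraries serve in the knockdown contrast.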

How the results depend on the processing

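Of 623 log2FC values with a test under alternative settings, 573 kept their direction and call, 41 lost the call, 9 gained it, and none changed direction with a call. Of 291 values given without a test, 289 moved by less than the spread between replicates. Dual knockdown in C4-2 gave MT2A values from 1.69 to 1.89 when a library was left out. In LNCaP, the number of genes that passed on dual knockdown, 3, was 1 with the GC trend removed and ranged from 1 to 4 when a library was left out, with 1 without knockdown replicate 1 or 2. For R1881 in C4-2, the number, 2, ranged from 0 to 2, with 0 without vehicle replicate 2 or R1881 replicate 1 or 3 and 1 without vehicle replicate 1. Between the lines with R1881, the number, 2, was 1 with the GC trend removed and ranged from 1 to 2, with 1 without LNCaP R1881 replicate 2 or C4-2 R1881 replicate 1 or 2. The cause of these changes was not tested. Over all genes, dual knockdown in LNCaP gave 2431 genes, 1234 with the GC trend removed, and 839 to 957 without R1881 replicate 2 or 3 or knockdown replicate 1 or 2. Dual knockdown in C4-2 gave 3983, and 2482 without R1881 replicate 3. The difference in knockdown response gave 2028 genes, 3538 without C4-2 knockdown replicate 1, 1342 without LNCaP knockdown replicate 2, and 1283 or 1272 without C4-2 knockdown replicate 2 or 3. With replicate number as a block, 3 genes passed on dual knockdown in LNCaP, the MT2A log2FC on knockdown in C4-2 and LNCaP were 1.82 and 0.65, and no call of a tested gene changed; the numbers did not pair the libraries. Summed metallothionein counts scaled by total counts moved by less than their SD. MT1F, with 11 counts in the shallowest library, and the 3 genes near 0 are limited by depth.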
